A study of Mus musculus with 18 samples.

Results

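The genes described here are 34 genes of synaptic vesicle release, taken from a list of symbols and matched by symbol to a RefSeq gene table (GRCm38.p6), out of 21770 nuclear protein-coding genes. They form 3 sets. The vesicle proteins are 17 genes (Syp, Syn1, Syn2, Syn3, Sv2a, Sv2b, Sv2c, Slc17a6, Slc17a7, Slc17a8, Rab3a, Rab3b, Syt1, Syt2, Syt4, Syt7 and Syt11). The SNARE machinery and its regulators are 8 genes (Snap25, Stx1a, Vamp1, Vamp2, Nsf, Cplx1, Cplx2 and Doc2b), and the active zone set holds 9 (Rims1, Rims2, Bsn, Pclo, Unc13a, Unc13b, Unc13c, Erc2 and Ppfia2). ATAC-seq, which reads out open DNA through adapters inserted by a transposase, was run on 18 samples of cortical neurons from CD1 mouse embryos of embryonic day 14.5 to 15.

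Every culture received cytosine arabinoside, which kills dividing cells, at 2 µM, was transduced with lentiviral shRNAs on day 6 and was harvested on day 11. Control plus scrambled shRNA, shOpa1 plus scrambled shRNA, and shOpa1 plus shAtf4 were given to 5 samples each, and control shRNA plus shAtf4 to 3. Opa1 encodes a fusion GTPase of the inner mitochondrial membrane, and Atf4 encodes a stress-induced transcription factor. The labels name the cells as primary neurons and do not say which samples share a litter or a culture. The deposited result is 1 list of consensus intervals for the whole series. It carries no value for a sample or a group and no read depth, so the effect of neither knockdown on these genes could be measured, and the values below have no replicate error.

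A synaptic vesicle is filled with transmitter, held in a reserve by synapsins, brought to the active zone with the help of Rab3 and RIM, and primed by Munc13. Fusion is driven by SNARE proteins on the vesicle and on the plasma membrane, is held in check and promoted by complexins, and is triggered by calcium through synaptotagmins. The ATPase NSF then takes the SNARE complex apart. The large scaffolds Bassoon, Piccolo, RIM, ELKS and liprin-alpha organise the release site opposite the receiving neuron.

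All 34 genes had a consensus peak within 1000 bp of an outermost end of the gene. The share was 70.4% over all protein-coding genes. Among the 200 protein-coding genes nearest in length to each member, the members left out, the share averaged 81.7%. In each of the 34 genes a peak also lay over an end base itself, which held for 57.9% of all protein-coding genes. With windows of 500 and 2500 bp the count stayed at 34, against 66.2% and 77.0% of all protein-coding genes. It was 33 with peaks of at least 500 bp, against 63.2%, and 33 without peaks near an end of another gene, against 59.4%. Peaks lay at both ends in 12 of the 34, against 20.6% of all protein-coding genes. For both ends no share was computed in genes near in length, and the members are longer, at a median of 66.7 kb against 17.2 kb. In Syn1, Syt2 and Unc13a each peak at the finish also lay at an end of another gene. The widest end peak of a member ranged from 318 bp at Slc17a8 to 2925 bp at Rims2, with a median of 1237.5 bp. It was wider than the median of the genes near in length in 23 of 34 members, against 46.9% of all protein-coding genes, with genes without an end peak counted as 0 bp. The list thus places each of these genes at an accessible end, and differences among them lay in how wide that site was and in how many others surrounded it.

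**Figure D1:**
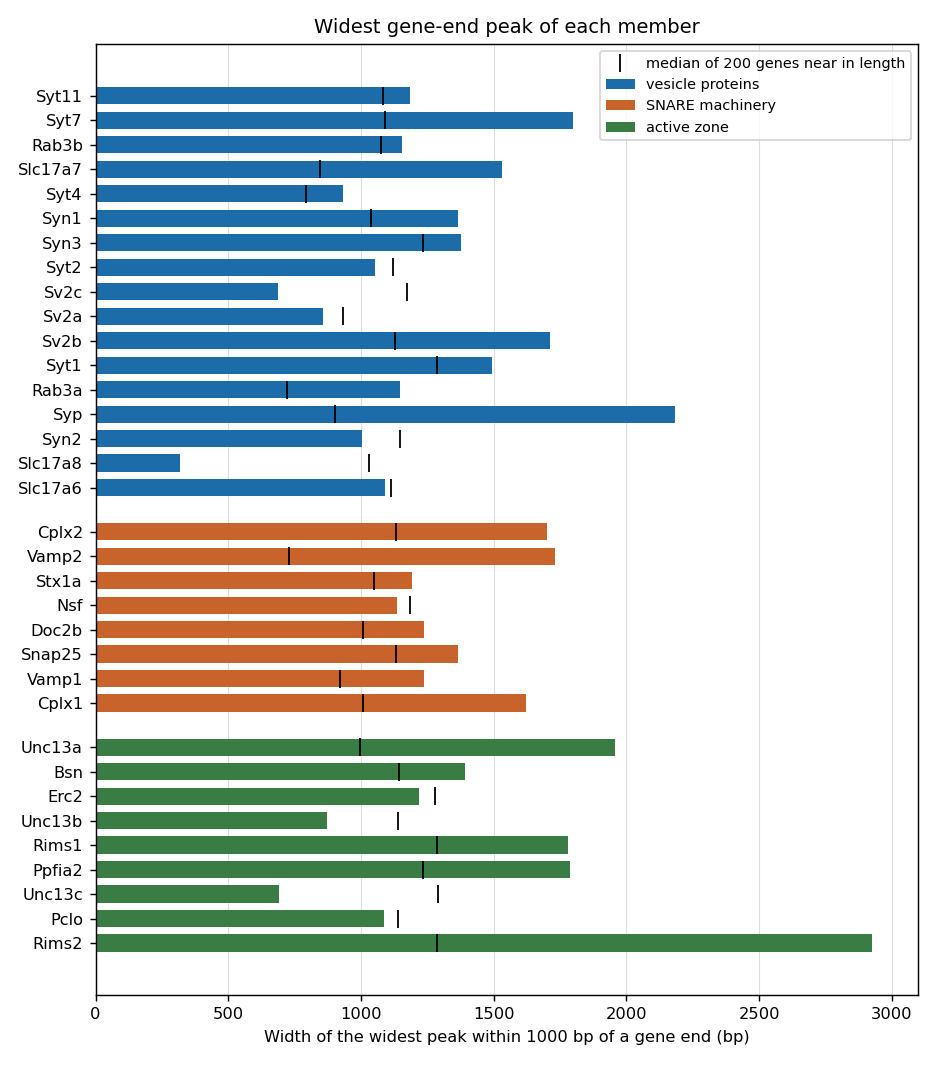
Bars give the width in bp of the widest consensus peak within 1000 bp of an end of each of the 34 genes, coloured by set, and black ticks give the median width in the 200 protein-coding genes nearest in length. Rims2 at 2925 bp and Syp at 2184 bp are the longest bars, and Slc17a8 at 318 bp is the shortest.

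Peaks were also counted over each gene with 10 kb on either side. It came to 817 distinct peaks over the 34 genes, of 211682 in the list. Of these, 659 (80.7%) lay inside a member away from gene ends, 67 were at a member's own end, 68 lay in the flanks and 23 lay at the end of another protein-coding gene. Of the 67 own-end peaks, 10 also lay at an end of another protein-coding gene. Own-end peaks had a median width of 858 bp, and those inside members one of 409 bp. The whole list showed nearly the same contrast. Peaks with a midpoint within 1000 bp of a coding gene end were 9.5% of it, with a median width of 811 bp. The other 90.5% had one of 414 bp. Longer genes hold more peaks, so each member was ranked among its 200 genes near in length, as the percentage of them with fewer peaks plus 0.5 times the percentage with the same number. The median percentile was 71.2 for the 34 members and 48.5 for all protein-coding genes. Of the members, 24 had more peaks than the median of their 200 genes, 8 had fewer and 2 had the same, and 43.9% of all protein-coding genes had more. The 90th percentile or above was reached by 8 members (23.5%), against 10.3% of all protein-coding genes. None of the 34 stood at or below the 10th percentile, where 9.65% of all protein-coding genes did. The 8 were Syt11, Unc13a, Cplx2, Bsn, Syt7, Rab3b, Vamp2 and Slc17a7, and they come from each of the 3 sets.

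**Figure D2:**
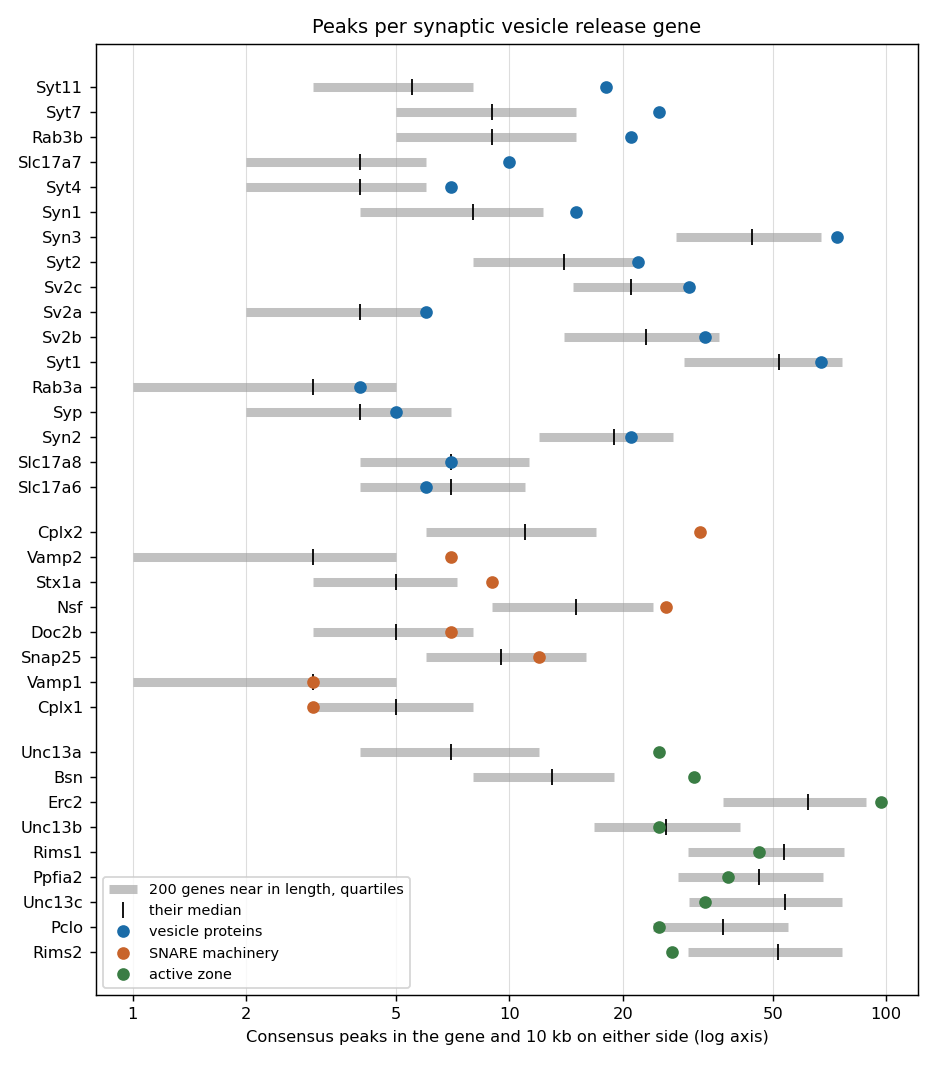
Points give the number of consensus peaks in each gene and its 10 kb flanks on a log axis, coloured by set. Grey bars span the quartiles, and black ticks mark the median, of the 200 protein-coding genes nearest in length. Syt11, Syt7, Rab3b, Cplx2, Unc13a and Bsn lie well to the right of their grey bars, while Rims2 lies to the left of its own.

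Syp, a vesicle protein gene, encodes synaptophysin, an abundant membrane protein of the vesicle (chromosome X, 7638580 to 7653256). Its end peak of 2184 bp (chrX:7638319-7640502) covered the annotated start, and it was the widest end peak among the vesicle proteins and stood at percentile 99 for width among genes near in length. The gene and its flanks held 5 peaks, against a median of 4, a percentile of 63.2. A second peak of 1065 bp lay inside the gene, 10407 bp from the start. The 300 bases around the start, 250 before it and 50 after it (RefSeq, GRCm38.p6, chrX:7638330-7638629, plus strand), all lie in the peak. They are shown because this is the widest accessible start of the vesicle set, with 2 GC boxes (GGGCGG, read on both strands) in capitals, whose first bases lie 67 and 49 bases before the start.
Syp: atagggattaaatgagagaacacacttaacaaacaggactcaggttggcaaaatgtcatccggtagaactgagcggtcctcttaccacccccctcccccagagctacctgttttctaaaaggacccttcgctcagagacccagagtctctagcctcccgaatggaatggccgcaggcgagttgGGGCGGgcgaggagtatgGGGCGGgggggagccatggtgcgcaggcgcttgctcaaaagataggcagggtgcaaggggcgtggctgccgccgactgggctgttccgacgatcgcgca

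Syn1 encodes synapsin I, which tethers vesicles to one another and to the cytoskeleton (chromosome X, 20860511 to 20920918, minus strand). A peak of 1367 bp (chrX:20920229-20921595) covered its start. Promoter sequences could be searched for 27 of the members. Among these, Syn1 alone held a REST element, the binding site of the repressor that silences neuronal genes in other cell types. That match differed at 2 of the 19 compared bases, and a match with at most 3 differences occurred in 0.103% of promoters of protein-coding genes. The same 300 bases held a cyclic AMP response element (CRE, TGACGTCA), which occurred in 2.23% of those promoters. Both matches are in capitals below, beginning 232 and 159 bases before the start (chrX:20920869-20921168, minus strand), and both lie inside the peak.
Syn1: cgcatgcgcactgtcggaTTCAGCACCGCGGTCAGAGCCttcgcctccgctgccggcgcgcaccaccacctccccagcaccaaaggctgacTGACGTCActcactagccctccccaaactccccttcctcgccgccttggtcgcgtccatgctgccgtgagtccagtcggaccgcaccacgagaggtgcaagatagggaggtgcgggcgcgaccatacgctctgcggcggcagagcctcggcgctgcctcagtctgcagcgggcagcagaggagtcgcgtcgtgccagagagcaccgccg

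Each synapsin gene holds a gene of the Timp family, tissue inhibitors of metalloproteinases, within its bounds. Timp1 lies in Syn1, Timp4 in Syn2 and Timp3 in Syn3, and each of the 3 had a peak at an end, with widest widths of 879, 387 and 815 bp. Syn1 had 15 peaks against a median of 8 in genes near in length (percentile 83.0). Of these, 3 at its own finish and 2 elsewhere lay at an end of another gene. Without such peaks, in every gene, Syn1 stood at 67.0, and with peaks away from all coding gene ends at 62.8. In Syn1 the longest stretch without a peak was 44.6 kb, from position 20870500 to 20915094, against a median of 25.7 kb in genes near in length. Syn2, of 147.7 kb, had 21 peaks against a median of 19 (percentile 57.2), and its start lay in a peak of 1004 bp (chr6:115134416-115135419). Syn3 had 74 peaks against a median of 44 (percentile 80). Its widest end peak was 1375 bp at the higher-coordinate end (chr10:86498027-86499401), and a peak of 1305 bp lay inside the gene nearby (chr10:86491326-86492630). Of the synapsins, Syn2 was thus the one closest to the middle of genes of its length, except with flanks of 50 kb, where it stood at 69.8 and Syn1 at 69.0.

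Syp and Syn1 are on chromosome X, where 49.2% of 963 protein-coding genes had a peak at an end. Against the 50 X-linked genes nearest in length, Syp stood at percentile 92.0 (5 peaks, median 2) and Syn1 at 98.0 (15 peaks, median 3.5). Both ranks were higher than those among genes of all chromosomes. The 15 peaks of Syn1 include those at ends of other genes, and its rank among X-linked genes without them was not computed.

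The vesicular glutamate transporters load glutamate into vesicles. Slc17a7 (VGLUT1) is the main form of cortical excitatory neurons, Slc17a6 (VGLUT2) that of thalamus and brainstem, and Slc17a8 (VGLUT3) is found in scattered neurons that often use another transmitter. Slc17a7 had 10 peaks against a median of 4 (percentile 93.5), Slc17a6 had 6 against 7 (41.2) and Slc17a8 had 7 against 7 (50.8). The start of Slc17a7 lay in a narrow peak of 199 bp (chr7:45163792-45163990). Its widest end peak, of 1530 bp (chr7:45175860-45177389), was at the finish of the gene, next to another of 653 bp. The gene has 5 other protein-coding genes in its window, and 4 of its 10 peaks lay at an end of another gene away from its own. The peak of 1530 bp also lay at an end of another gene. Without any of these peaks, in every gene, the percentile of Slc17a7 was 75.5, the lowest over the settings tried. Slc17a6 had its widest end peak at the start (1091 bp, chr7:51621521-51622611), and 5 of the 6 peaks inside it lay in the first 25% of its length. Its second annotated start lay in a peak of 505 bp. Slc17a8 had the narrowest widest end peak of all members, 318 bp at its start (chr10:89621119-89621436), with a wider one of 822 bp inside the gene 1622 bp from the start. Slc17a7 thus had the most peaks of the 3 and the narrowest start peak, but its lead in number rested on peaks at ends of other genes. Without them it had fewer peaks than either of the others, whose windows hold no other protein-coding gene. Its rank of 75.5 then stayed above those of Slc17a6 (48.0) and Slc17a8 (53.8). The 300 bases around the start of Slc17a7 are shown with the 179 bases that lie in its narrow peak in capitals (chr7:45163671-45163970, plus strand).
Slc17a7: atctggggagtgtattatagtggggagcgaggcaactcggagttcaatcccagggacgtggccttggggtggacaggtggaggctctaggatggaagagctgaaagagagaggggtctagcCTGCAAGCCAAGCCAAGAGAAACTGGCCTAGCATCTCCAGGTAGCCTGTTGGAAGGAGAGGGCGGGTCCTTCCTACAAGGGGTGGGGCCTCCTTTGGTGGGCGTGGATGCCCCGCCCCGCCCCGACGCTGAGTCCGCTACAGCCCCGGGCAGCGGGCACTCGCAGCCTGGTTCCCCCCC

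Sv2a, Sv2b and Sv2c encode glycoproteins of the vesicle membrane, and Sv2a is the target of the antiepileptic levetiracetam. Sv2a had 6 peaks against a median of 4 (percentile 72.0), Sv2b 33 against 23 (70.5) and Sv2c 30 against 21 (73.0), so the 3 stood at close ranks in this count. The single interval over the start differed in width. Sv2b had a peak of 1711 bp (chr7:75307834-75309544) that covered 2 of its 4 annotated starts, Sv2a one of 858 bp and Sv2c one of 689 bp. In Sv2a this peak (chr3:96180618-96181475) was closely followed by peaks of 812 bp (chr3:96181521-96182332) and 540 bp (chr3:96182370-96182909). Sv2c also had peaks of 242 and 183 bp close by. The width of 1 interval thus does not give the extent of the open start. In Sv2b, 15 of 31 peaks inside the gene (48.4%) lay in the first 25% of the gene, against a median of 25% in genes near in length. In Sv2c that share was 22.2%, and its widest peak inside the gene, of 1162 bp (chr13:96010764-96011925), lay 121233 bp from the start. For Sv2a, 3 of the 6 peaks lay at an end of another gene, and its percentile ran from 27.5 to 94.5 over the settings tried.

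Rab3a and Rab3b encode small GTPases that bring vesicles to the active zone, and Rab3a is the common form of the forebrain. Rab3a is 3.9 kb long and had 4 peaks against a median of 3 (percentile 67.0). Of these, 1 of 1148 bp covered both annotated starts (chr8:70754388-70755535) and 3 lay at ends of other genes. Rab3b had 21 peaks against a median of 9 (percentile 93.8), with 14 inside the gene away from its ends and no other protein-coding gene in the window. Its start peak was 1155 bp wide (chr4:108878771-108879925). Rab3b thus had the larger number of peaks. Its rank was also the higher, except with flanks of 50 kb (83.2, against 87.8 for Rab3a) and with peaks of at least 500 bp (93.2 against 95.2). Without peaks at an end of another gene, Rab3a stood at 38.5.

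Synaptotagmins are vesicle proteins with a pair of C2 domains, of which Syt1 and Syt2 are the fast calcium sensors, Syt7 a slower sensor with high calcium affinity, and Syt4 and Syt11 forms that bind calcium poorly. All 5 had more peaks than the median of genes near in length. Syt11 had 18 peaks against 5.5 in 30.5 kb, a percentile of 99.5 and the highest of all members, and 11 of the peaks lay inside the gene, or 36.1 per 100 kb against a median of 9.84. Its widest end peak, of 1183 bp (chr3:88742782-88743964), lay beyond the finish of the gene. The annotated start of Syt11, inside the outermost bounds, lay in a peak of 519 bp (chr3:88772376-88772894). Syt7 had 25 peaks against 9 (percentile 96.0), an end peak of 1799 bp at its lower-coordinate end (chr19:10388516-10390314) and one of 1500 bp inside (chr19:10433018-10434517). Syt4 had 7 peaks against 4 (percentile 86.2) and an end peak of 932 bp. The forms that are not fast sensors thus had the 3 highest ranks of the family, but not in every setting. Syt4 was the lowest of the 5 with flanks of 50 kb (38.8), with peaks of at least 500 bp (30.8) and by share of bases covered (59.0), and with no flank it stood at 67.0, below Syt1 at 68.5.

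Syt2, a fast sensor of hindbrain and inhibitory synapses, had 22 peaks against a median of 14 (percentile 75.8). Its 2 annotated starts lay in peaks of 1053 bp and 979 bp, the latter centred 62558 bp into the gene. Syt1, the main sensor of forebrain synapses, spans 513.3 kb and had 67 peaks against 52 (percentile 67.5). A peak of 1492 bp (chr10:109010256-109011747) covered its outer start. In Syt1, 7 of 65 peaks inside the gene (10.8%) lay in the first 25% of the gene, against a median of 23.5% in genes near in length, and its widest inner peak, of 1077 bp, lay 409000 bp from the gene's outermost start (chr10:108601442-108602518). The second annotated start of Syt1 was in no peak, and the nearest was 1145 bp away. Promoter sequences could be searched for 27 of the members. Around the second start of Syt1 lay the 1 match among these to the composite element that ATF4 binds with C/EBP factors (TGATGNAA, both strands). A match occurred in 3.6% of protein-coding promoters. The match is in capitals, beginning 97 bases before the start (chr10:109009062-109009361, minus strand), and is shown since the study concerns ATF4.
Syt1, second start: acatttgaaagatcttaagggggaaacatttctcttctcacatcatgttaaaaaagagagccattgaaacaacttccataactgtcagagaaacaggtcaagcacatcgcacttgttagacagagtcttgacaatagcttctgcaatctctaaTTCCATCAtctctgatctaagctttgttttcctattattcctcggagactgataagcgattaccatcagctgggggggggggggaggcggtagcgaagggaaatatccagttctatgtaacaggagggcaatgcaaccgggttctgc

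Of the SNARE machinery, Snap25 and Stx1a encode the plasma membrane partners and Vamp1 and Vamp2 those on the vesicle. Snap25 had 12 peaks against a median of 9.5 in genes near in length (percentile 62.0), with 3 at its lower-coordinate end, the widest of 1365 bp (chr2:136712574-136713938). The longest stretch without a peak in Snap25 was 22.8 kb and ran to its higher-coordinate end. Stx1a had 9 peaks against 5 (percentile 83.8), with its start in a peak of 1192 bp (chr5:135023131-135024322). Vamp2, the main form of the forebrain, is 3.9 kb long and had 7 peaks against 3 (percentile 93.8), of which 5 lay in the flanks away from gene ends. Its window also overlaps the gene Per1, and any peak inside Per1 away from gene ends counted as one in the flanks. The percentile of Vamp2 was 61.5 with no flank, 74.5 with flanks of 2 kb and 86.8 with peaks of at least 500 bp. Its end peak was 1732 bp wide (chr11:69087960-69089691), at percentile 94 for width and the widest end peak of the set. Vamp1, the form of spinal cord and brainstem, had 3 peaks against 3 (percentile 48.8), 1 of them its start peak of 1236 bp (chr6:125215014-125216249) and 2 at an end of the neighbour Tapbpl. The main forebrain form thus had the wider end peak of the pair, and the higher rank in each setting tried.

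Nsf encodes the ATPase that recycles SNARE complexes. It had 26 peaks against a median of 15 (percentile 79.0), and its start peak was 1137 bp wide (chr11:103953116-103954252). Doc2b encodes a calcium sensor of spontaneous release. It had 7 peaks against 5 (percentile 67.5) and an end peak of 1239 bp (chr11:75795549-75796787).

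The complexins, small proteins that bind the assembled SNARE complex, differed most within the set. Cplx1 had 3 peaks against a median of 5 (percentile 22), and Cplx2 had 32 against 11 (percentile 98.0). Both had a wide start peak, of 1622 bp in Cplx1 (chr5:108549133-108550754) and 1700 bp in Cplx2 (chr13:54302300-54303999). The difference lay in the rest of the gene, where Cplx1 had 1 peak inside, of 583 bp, and Cplx2 had 22 away from its ends and 7 in the flanks. Per 100 kb of gene, Cplx2 held 29.3 peaks against a median of 10.8, and Cplx1 held 6.35 against 9.44. The window of neither gene held another protein-coding gene. By share of bases covered, Cplx1 stood at percentile 44, and its rank ran from 19.5 to 64.2 over all settings tried, while that of Cplx2 ran from 96.8 to 99.5. The promoter of Cplx2 is shown as the widest accessible start of the set among genes with a promoter in the table (chr13:54302306-54302605, plus strand). It lies wholly in the peak and holds none of the motifs searched, so no base is in capitals.
Cplx2: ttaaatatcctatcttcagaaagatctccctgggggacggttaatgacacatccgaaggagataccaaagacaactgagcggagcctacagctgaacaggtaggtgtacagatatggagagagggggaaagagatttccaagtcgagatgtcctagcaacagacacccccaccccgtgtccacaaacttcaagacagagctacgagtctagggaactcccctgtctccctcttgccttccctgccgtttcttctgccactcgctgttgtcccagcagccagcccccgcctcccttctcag

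The active zone genes were the longest, with a median of 464.0 kb against 60.4 kb for vesicle proteins and 29.6 kb for the SNARE set. Their median number of peaks was 31, the highest of the sets, but 6 of the 9 had fewer peaks than the median of genes near in length, and their median percentile was 42.0. It was 73.0 for vesicle proteins, of which 1 of 17 had fewer, and 73.2 for the SNARE set, of which 1 of 8 had fewer. Per 100 kb of gene the medians were 8.7, 15.9 and 16.9 peaks for active zone, vesicle and SNARE genes, against 10, 10.1 and 10.5 for genes near in length. Under each of the 9 other settings the active zone median stayed below 50, between 38.0 and 48.8. Those of the vesicle and SNARE sets lay between 69.6 and 79.6. No test of this difference was made, since genes of a set are not replicates.

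**Figure D3:**
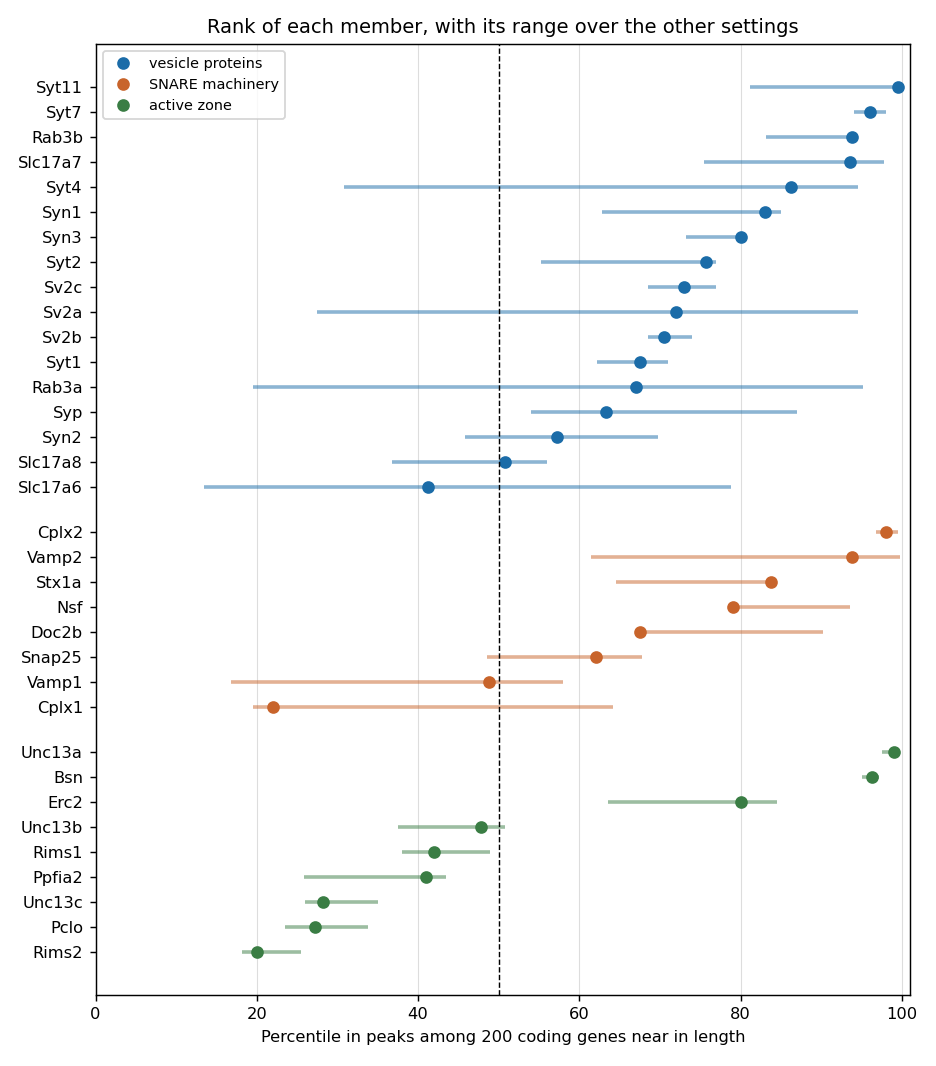
Points give each gene's percentile in number of peaks among the 200 protein-coding genes nearest in length, and lines give the range over these and 9 other settings. The dashed line marks percentile 50. Of the 9 active zone genes, 6 lie left of it, whereas Unc13a and Bsn stay at 95 or above in every setting.

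Munc13 proteins prime docked vesicles, and Unc13a encodes the form most cortical synapses need. Unc13a had 25 peaks against a median of 7 in 47.6 kb (percentile 99), the second highest rank of all members. Inside the gene there were 50.4 peaks per 100 kb against a median of 8.56, and 21.4% of the bases of its window lay in peaks, against a median of 5.72%. Its start peak was 1958 bp wide (chr8:71670206-71672163), and 3 further peaks of 1251, 1311 and 1363 bp lay inside the gene. Unc13b also had 25 peaks, in 218.7 kb, against a median of 26 (percentile 47.8). Unc13c, the form best known from cerebellum, had 33 peaks in 528.7 kb, against a median of 54 (percentile 28.2). The 3 paralogues thus held similar numbers of peaks in genes of very different length.

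The annotated starts of Unc13b and Unc13c lie inside the outermost bounds. Each lay in a peak wider than the one at the outermost end, of 1231 bp in Unc13b (chr4:43058471-43059701, against 871 bp) and 982 bp in Unc13c (chr9:73968329-73969310, against 693 bp). The outermost end of Unc13b overlaps the gene Fam214b, and Unc13b was the 1 member with no end peak once peaks near an end of another gene were left out. The start of Unc13a is shown as the widest accessible start of the set among genes in the promoter table (chr8:71671708-71672007, minus strand), with 2 GC boxes, here on the reverse strand, in capitals. They begin 50 and 26 bases before the start.
Unc13a: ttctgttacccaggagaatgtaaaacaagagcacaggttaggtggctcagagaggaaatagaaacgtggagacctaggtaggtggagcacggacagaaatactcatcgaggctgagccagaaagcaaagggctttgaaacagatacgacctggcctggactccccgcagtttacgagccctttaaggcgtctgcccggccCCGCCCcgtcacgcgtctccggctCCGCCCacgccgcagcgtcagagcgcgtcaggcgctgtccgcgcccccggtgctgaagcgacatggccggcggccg

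Bsn and Pclo encode Bassoon and Piccolo, related giant scaffolds. Bsn had 31 peaks against a median of 13 in 94.4 kb (percentile 96.2), at 29.7 per 100 kb of gene, with a start peak of 1391 bp (chr9:108189391-108190781) and an inner peak of 1459 bp (chr9:108136770-108138228). Pclo had 25 peaks against 37 in 348.6 kb (percentile 27.2), at 6.89 per 100 kb, with a start peak of 1085 bp (chr5:14514560-14515644). The longest stretch without a peak was 11.0 kb in Bsn and 73.6 kb in Pclo (14723984 to 14797618), against medians of 27.0 and 42.6 kb. The related scaffolds thus lay on opposite sides of genes of their own length.

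RIM proteins bind Rab3, Munc13 and calcium channels. Rims1 had 46 peaks against a median of 53.5 (percentile 42.0) and a start peak of 1780 bp (chr1:22805384-22807163). Rims2 had 27 against 51.5 (percentile 20, the lowest of all members), and yet the widest end peak of all, 2925 bp at its lower-coordinate end (chr15:39196557-39199481), at percentile 99.5 for width. Both genes had a long stretch without a peak. It ran for 122.9 kb in Rims1 (22377807 to 22500703) and for 180.3 kb in Rims2 (39409740 to 39590007), against medians of 47.9 and 45.7 kb. Beyond that stretch Rims2 held an inner peak of 1374 bp (chr15:39659169-39660542). Each RIM gene was thus marked by a wide end peak and a long interior without peaks.

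Erc2 encodes ELKS2, a scaffold that binds RIM, and Ppfia2 encodes liprin-alpha2. Erc2, the longest member at 856.3 kb, had 97 peaks, the most of all members, against a median of 62 (percentile 80). Inside Erc2, 38 of 96 peaks (39.6%) lay in the first 25% of the gene, against a median of 24.2%, and the widest was 1371 bp (chr14:27717162-27718532), 95572 bp from the outermost start. Its start peak was 1218 bp wide (chr14:27622002-27623219). Ppfia2 had 38 peaks against 46 (percentile 41.0), with 5 of them (13.2%) in the first 25% of the gene, against a median of 24.5%. Its start peak was 1789 bp wide (chr10:106468783-106470571). Peaks of the 2 scaffold genes were thus spread in opposite ways along their length.

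**Figure D4:**
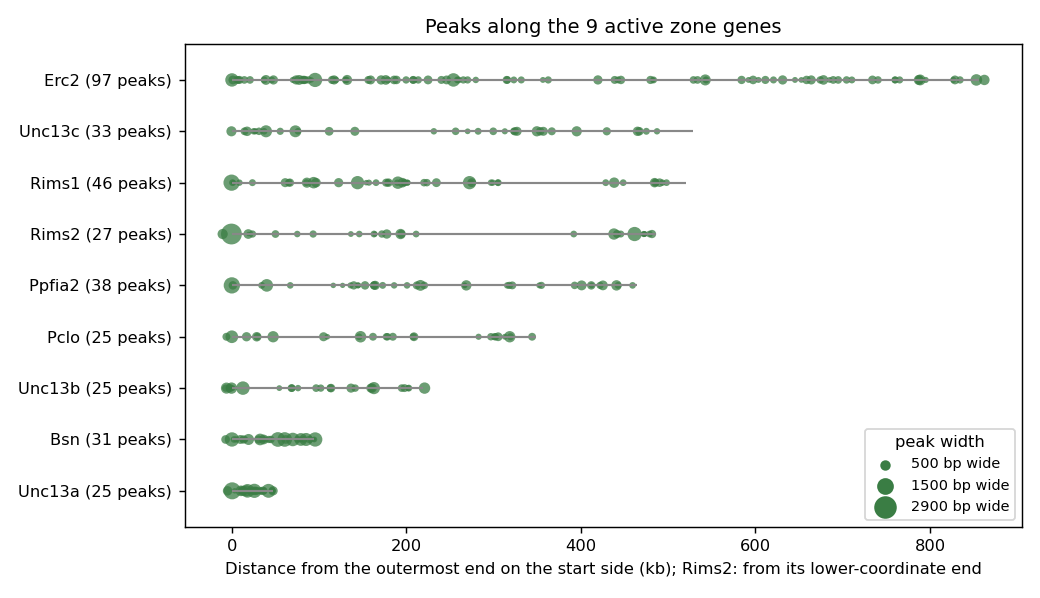
Each line is 1 of the 9 active zone genes drawn to scale in kb from its outermost end on the start side (Rims2 from its lower-coordinate end), and each dot is a consensus peak, with area in proportion to its width. The stretches of 122.9 kb in Rims1 and 180.3 kb in Rims2 without a peak show as bare lines, and the 25 peaks of Unc13a lie within and around 47.6 kb.

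Annotated starts could be placed for the 27 members in a RefSeq promoter table of the same assembly. Syn3, Syt4, Syt7, Snap25, Vamp2, Doc2b and Rims2 had no entry. Of 36 annotated starts, 32 (88.9%) lay in a peak, against 61.1% of 21262 starts of protein-coding genes. The outermost annotated start of each of the 27 genes was in a peak. The 4 that were not were inner starts, 2 of Sv2b and 1 each of Syn2 and Syt1, at 304, 811, 307 and 1145 bp from the nearest peak. The starts were also split by CpG ratio, the number of CG pairs over that expected from the C and G content of the 300 bases. Promoters rich in CG pairs are often open in many cell types, and those poor in CG pairs more often in particular ones. At a ratio of at least 0.6, 20 of 20 member starts lay in a peak, against 95.0% of all. Below it, 12 of 16 did, against 30.3% of all. Among the 12 were Unc13c (ratio 0.23), Slc17a8 (0.28 at its outer start), Syt1 (0.33 at its outer start), Slc17a6 (0.37), Rab3b (0.40), Cplx2 (0.43) and Slc17a7 (0.44).

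The other motifs searched in the promoters, each on both strands with overlaps allowed, were as follows. A GC box, the site of the SP factors, was found at 23 of 36 starts (63.9%), in 22 of 27 genes, against 46.2% of promoters of protein-coding genes. A TATA box (TATAAA) was found in Rab3b and at 2 starts of Sv2b, against 12.6%. An AP-1 site (TGANTCA) was found in Erc2 and at the second start of Syt2, against 6.99%. A match is a stretch of letters and not a shown binding site.

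Further genes of the same pathway, from lists drawn up apart from the members, were read in the same way. Of 37 other release genes, 36 had a peak at an end (97.3%, against an average of 80.3% in genes near in length), and the median percentile in peaks was 77.2. The widest end peaks were at Rimbp2, which encodes a protein that links RIM to calcium channels (2273 bp), at Cadps, a priming factor of dense-core vesicles (2213 bp), and at Syt17 (2096 bp). The exception was Dnajc5, which encodes the vesicle chaperone cysteine string protein. Of these genes, 10 of 37 (27.0%) reached the 90th percentile, against 10.3% of all protein-coding genes, among them Slc32a1, the vesicular transporter for GABA, which had 13 peaks against a median of 3 in genes near in length. Of 15 genes of vesicle endocytosis, 14 had a peak at an end (93.3%, against an average of 82.9%) and the median percentile was 63.8. The widest were at Bin1 (2166 bp), Picalm (2068 bp) and Ap2a2 (1637 bp), and Ston2 had none. The list of other release genes holds relatives of the active zone members, and most of these ranked high. Rims3 stood at percentile 96.5, Rims4 at 99.8, Rimbp2 at 76.8, Ppfia1 at 90.5, Ppfia3 at 76.8 and Ppfia4 at 90.2, while Erc1 stood at 23.5. The lower ranks of the active zone set thus did not extend to most relatives of its members in this list, but the lengths differ. The relatives that ranked high are 27894 bp (Ppfia3) to 195857 bp (Rimbp2) long, and Erc1 is 277389 bp long. Active zone members below percentile 50 are 218.7 kb or longer, and the high-ranking Unc13a and Bsn are 47.6 and 94.4 kb. Erc2, at 856.3 kb and percentile 80, went the other way. Whether rank follows length in these families was not tested.

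Paralogues used mainly outside neurons gave lower values as a list, in which a cluster of neighbouring genes weighed heavily. Of 22, 14 had a peak at an end (63.6%, against an average of 75.6% in genes near in length), and the median percentile was 43.6. The widest were at Stx2 (1541 bp), Sypl (1289 bp) and Rab3d (1281 bp), and those without included Cplx4, Slc17a1 and Slc17a2. In the family of Slc17a7, the 4 neighbouring genes Slc17a1, Slc17a2, Slc17a3 and Slc17a4, which encode transporters of kidney, liver and gut, had no end peak and 2, 2, 3 and 3 peaks, each below a median of 4 or 5. Cplx4 had 2 peaks and none at an end, but it is best known from neurons of the retina, so the name of the list does not hold for it. Slc17a1 to Slc17a4 lie side by side on chromosome 13, and with Cplx4 they are most of the paralogues without an end peak. The lower share of the list thus rests largely on these genes, and the share without them was not computed. Among vesicle SNAREs, Vamp8 had 1 peak and none at an end, while Vamp3 had 5 peaks against a median of 4 and an end peak of 1151 bp. Unc13d, the Munc13 of blood cells, went the other way with 11 peaks against 4 (percentile 95.5) and an end peak of 1267 bp. Rab27a (82.5) and Stx3 (76.5) also ranked high. Of the 22, 11 had fewer peaks than the median of their genes near in length, 6 had more and 5 had the same. The share for members and for paralogues was not compared by a test.

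**Figure D5:**
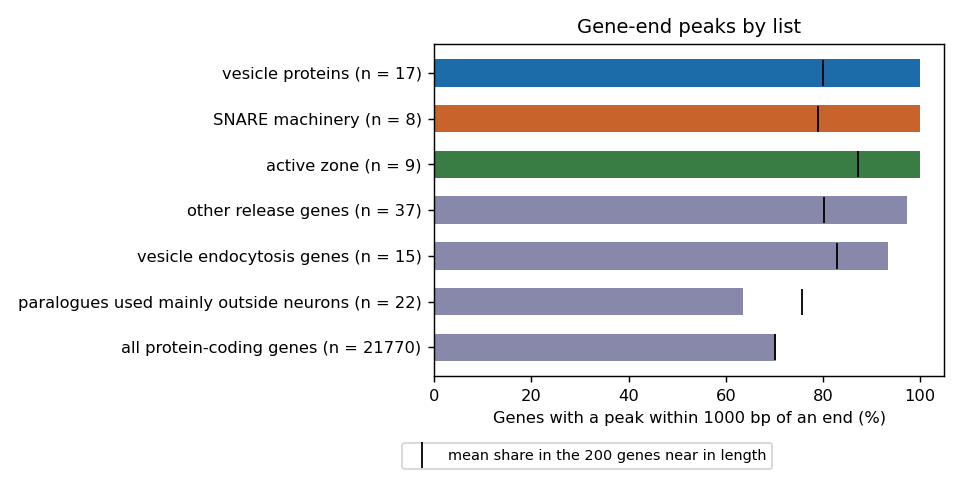
Bars give the percentage of genes of each list with a consensus peak within 1000 bp of an end, and black ticks the mean percentage in the 200 protein-coding genes nearest in length to each gene. The 3 member sets stand at 100%, other release genes at 97.3% and paralogues used mainly outside neurons at 63.6%, below their own tick at 75.6%. Paralogues without an end peak include the neighbouring genes Slc17a1, Slc17a2, Slc17a3 and Slc17a4.

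The labelled cell type was checked with marker lists that hold none of the members. A peak at an end was found for 10 of 10 pan-neuronal genes and 6 of 6 inhibitory markers. It was found for 4 of 6 astrocyte markers (not Aqp4 or Aldh1l1), 2 of 6 oligodendrocyte markers (not Mog, Mag, Sox10 or Mobp) and 3 of 6 microglia markers (not Aif1, P2ry12 or C1qb). The share in genes near in length averaged 80% for the pan-neuronal list and 70.8% for the inhibitory list. For the astrocyte, oligodendrocyte and microglia lists it averaged 77.9%, 77.5% and 72.9%. Median percentiles in peaks were 65.1, 97.4, 82.1, 50.0 and 64.8 in the order in which the lists are named. By this rank the astrocyte list stood above the pan-neuronal list and the microglia list close to it, so ranks did not separate neuronal from glial markers. The part that other cells of the cultures had in the peaks of the members was not tested.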

How the data were processed

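The deposited file is 1 list of consensus peaks from ATAC-seq of 18 samples. MACS2, deepTools, MultiQC and mm10 are named without versions in the submitters' processing notes, and the peak names carry MSPC. The sources used here do not give the aligner, the thresholds, the filters or which samples entered. The score that the authors deposited is 1000 for all but 3243 peaks, so it ranked nothing. No column holds counts, so the planned tests between groups were not run, and depth is unknown.

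Gene bounds and promoters came from RefSeq tables of GRCm38.p6, the assembly named mm10, and no genome sequence was used. Left out were 348 genes on scaffolds and genes with no chromosome. A peak counted by any overlapping base. Strand came from the promoter table. The REST element was a consensus of 21 bases, 19 of them compared. Alternatives are in the closing section. The members and lists were chosen with earlier results of these data known, and nothing here is a test. All members are named. Of other lists, the genes named are the 3 with the widest end peak and up to 3 with none. Further ones, coordinates beyond those of the 3 highest and 2 lowest members of each set, and the Slc17a7 promoter were chosen after their values were seen. Counting was tested on simulated data. Python 3.11.15, numpy 2.4.6, pandas 2.3.3 and matplotlib 3.10.9 were used. The list of excitatory neuron markers is not reported here.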

Additional observations from a re-analysis of the deposited data

How the results depend on the processing

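All 34 members kept a peak at an end with windows of 500 and 2500 bp and over the end base. With peaks of at least 500 bp the count was 33 (without Slc17a8), and without peaks near another gene's end 33 (without Unc13b). The median number of peaks per member, 21.5, became 8 with peaks of at least 500 bp, and lay between 15.5 (the gene alone) and 31.5 (flanks of 50 kb) otherwise. The median percentile ran from 67.4 to 73.9 with 100 or 400 genes near in length, the share of bases covered, flanks of 0, 2 and 50 kb, wide peaks, peaks away from gene ends and no peaks at another gene's end. Without synaptotagmins and Doc2b it was 71.2 for vesicle proteins and 79.0 for the SNARE set. Between 7 and 9 members reached the 90th percentile in each setting, and Bsn, Cplx2, Syt7 and Unc13a did so in all of them. Ranks moved most for Rab3a (19.5 to 95.2), Sv2a (27.5 to 94.5), Slc17a6 (13.5 to 78.8), Syt4 (30.8 to 94.5), Cplx1 (19.5 to 64.2), Vamp1 (16.8 to 58.0) and Vamp2 (61.5 to 99.8). The gene alone, wide peaks and peaks at or near other ends for ranks, and the X-linked comparison, were added after the data were seen. No paired analysis was possible because no value in the list belongs to a sample. How many samples share a peak is unknown, so a site open in 1 group alone may be absent or present.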

Other observations

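Of the 817 peaks in and around the members, 10 (1.2%) had a deposited score below the ceiling of 1000, against 1.5% of all peaks. They had a median width of 261 bp. Sv2b and Unc13c held 2 each, and Syn3, Sv2c, Snap25, Vamp1, Erc2 and Ppfia2 held 1 each.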
